A study of Mus musculus with 2 samples.

Results

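The genes described here encode the MHC class II molecules and the proteins that load them with peptide. They are H2-Aa, H2-Ab1, H2-Eb1, Cd74, H2-DMa, H2-DMb1, H2-DMb2, H2-Oa, H2-Ob and Ciita, and are 10 of the 20938 genes in the deposited tables. They were chosen by symbol from general knowledge of the pathway, with earlier results of these data known. RNA-seq was performed on splenic Treg cells taken on day 7 after islet transplantation, and 1 library was made per genotype, namely Foxp3-Mettl14f/+ cKO and littermate control. In the cKO mice, Cre under the Foxp3 gene removes 1 floxed copy of Mettl14, a subunit of the m6A writer, in Foxp3+ cells, and the other copy is intact. On the control genotype the sources differ, since the label gives wild type and the methods give Mettl14f/f. All recipients were on a C57BL/6J background, had streptozotocin-induced diabetes and received BALB/c islets under the kidney capsule. Both libraries came from recipients that were not given the tolerance-inducing antibodies. The cells were enriched with magnetic beads, first by depletion of cells other than CD4+ T cells and then by CD25 selection. By the paper's flow cytometry a minority of the cells sorted in this way were not Foxp3+ Treg cells, and no purity is given for these libraries themselves. How many animals were pooled into a library, and their age, are not given in the sources used here. The label of the cKO library reads Foxp3 knockdown, whereas the design text names the Mettl14 cKO, which is the name used here.

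MHC class II molecules display peptides from endocytosed proteins to CD4+ T cells. The alpha and beta chains (H2-Aa with H2-Ab1 for I-A, H2-Eb1 for the beta chain of I-E) assemble around the invariant chain Cd74, whose CLIP fragment fills the groove until the DM heterodimer (H2-DMa with H2-DMb1 or H2-DMb2) exchanges it for peptide. The DO heterodimer (H2-Oa with H2-Ob) binds DM and restrains it, chiefly in B cells. Transcription of the class II chains, Cd74 and DM depends on Ciita, a coactivator that does not bind DNA itself and is recruited by an enhanceosome of RFX, CREB and NF-Y proteins on the X and Y boxes of the promoters. In the spleen the pathway is known from B cells, dendritic cells and macrophages, whereas mouse T cells transcribe little of it.

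The promoter letters that the enhanceosome is known to read are shown first, for the 5 members in which they were found and can be printed. RefSeq promoters (250 bases before to 50 after each start, GRCm38.p6, the mm10 build) were found for 7 of the 10 members, and not for H2-Ab1, Cd74 and Ciita. Each stretch below is 53 bases long, runs 5′ to 3′ on the strand of the gene, and ends before the RefSeq start. Capitals mark TGATTGG, the Y box core that NF-Y binds, and AACNNATG, letters of the X box core, where they are present.
H2-Eb1, chr17:34305768-34305820, plus strand: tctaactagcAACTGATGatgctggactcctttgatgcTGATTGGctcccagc
H2-DMb2, chr17:34145119-34145171, plus strand: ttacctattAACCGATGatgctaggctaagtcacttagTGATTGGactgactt
H2-Ob, chr17:34238808-34238860, plus strand: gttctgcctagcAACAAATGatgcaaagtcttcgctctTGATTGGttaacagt
H2-Aa, chr17:34287859-34287911, minus strand: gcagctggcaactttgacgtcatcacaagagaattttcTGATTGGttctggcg
H2-Oa, chr17:34092296-34092348, plus strand: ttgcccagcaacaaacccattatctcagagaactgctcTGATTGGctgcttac

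The Y box letters were in the promoters of 6 of the 7 members, between 45 and 92 bases before the start, and not in the 2 promoters listed for H2-DMa. The X box letters lay before the Y box in H2-Eb1, H2-DMb1, H2-DMb2 and H2-Ob, with 18 to 21 bases between the 2 motifs. In H2-DMb1 this stretch lies in an exon of the GENCODE annotation and is not printed, and 46 of its 53 positions are identical to those of H2-DMb2. Over all 32851 promoters of this length, searched on both strands, 7.82% held TGATTGG and 8.86% held AACNNATG. The pair in this order, with 10 to 40 bases between, was in 18 of them (0.0548%). The letters searched were settled after the members' promoters had been read, so these shares describe the letters and are not a test. Of the 4 genes between the class II genes that have a promoter entry, Psmb9 and Tap1 also held TGATTGG, and 0 held the pair.

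The deposited values of a library rise in equal steps, 1 step for each read, so whole reads could be recovered, 20239325 in the control and 18327535 in the cKO library. Changes are the log2 of the cKO value plus 1 over the control value plus 1, on the deposited scale, for the 16659 genes with a mean of at least 1. With 1 library per genotype no difference has a replicate check and no p-value is given. The 95% intervals in parentheses are exact Clopper-Pearson intervals that cover counting error only. Copies of 1 molecule made by PCR were not told apart, so the intervals may be too narrow even for counting error. Mettl14 had 948 reads in the control and 652 in the cKO library, a log2 change of -0.31 (-0.45 to -0.16), or 0.05 when libraries were scaled on the 16 T cell core genes, such as Cd3e and Lck (the T cell core scale). Foxp3 had 1547 and 1361 reads and a change of 0.05 (-0.06 to 0.15). The T cell core genes had a median change of -0.35, and the median over all genes was -0.04.

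All 10 class II genes had more reads in the cKO library, and each was at least 2-fold higher. Together they held 32107 reads in the control and 78055 in the cKO library, or 0.159% and 0.426% of all reads. Their median log2 change was 1.55, with a range from 1.03 for H2-DMa to 2.25 for H2-DMb2, and all 10 passed the filter on low values. At the 1.5-fold threshold that the methods give, 10 of 10 members were higher, against 17.2% of all genes compared and 10.2% of the genes whose mean value was at least that of the least abundant member. At 2-fold, 10 of 10 members were higher, against 10.3% of all genes. Markers of B cells and macrophages were also higher in the cKO library, with median changes of 2.34 and 2.16, and their part in these values was not tested.

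**Figure D1:**
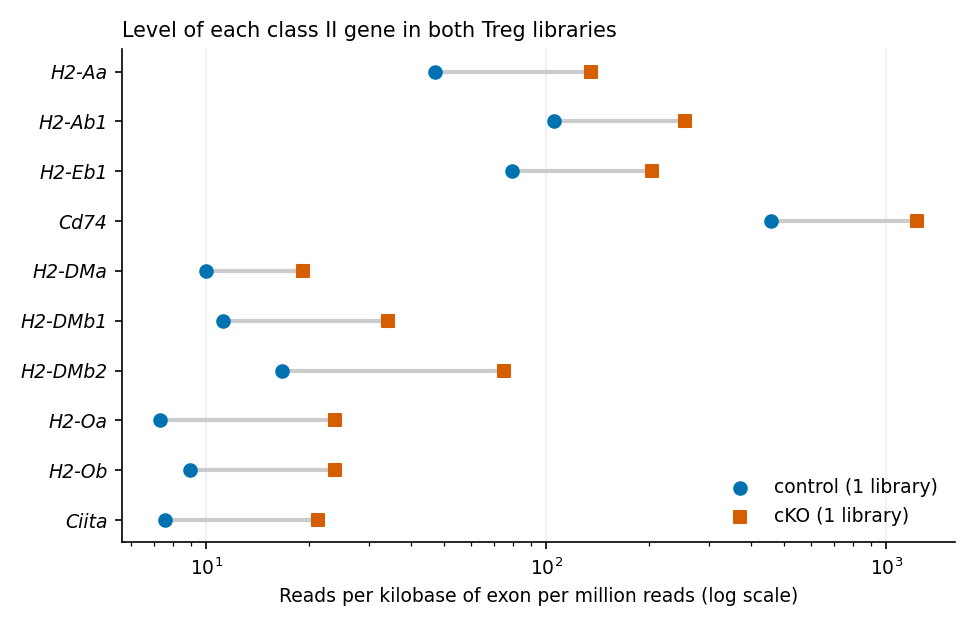
Level of each class II gene in reads per kilobase of exon per 1000000 reads (log axis), with a circle for the control library and a square for the cKO library. The square lies to the right of the circle for all 10 genes, and Cd74 is the most abundant in both libraries.

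Among the peptide-binding chains, H2-Ab1, the beta chain of I-A, had 5464 reads in the control and 12076 in the cKO library, a log2 change of 1.38 (1.33 to 1.42). Its partner H2-Aa had 3616 and 9451 reads and a change of 1.62 (1.56 to 1.68). H2-Eb1, the beta chain of I-E, had 3127 and 7303 reads and a change of 1.46 (1.40 to 1.52). The interval of H2-Aa lay above those of the other two. Per kilobase of exon, H2-Aa stood at 0.448 of H2-Ab1 in the control and 0.529 in the cKO library. The ratio was thus 1.18 times as high in the cKO library (1.125 to 1.24). A ratio within a library does not depend on scaling between libraries. Exon length covers the exons of all annotated transcripts of a gene, so the level of a ratio per kilobase depends on the annotation. The change of such a ratio does not. C57BL/6 mice carry a haplotype that makes no I-E alpha chain, whereas the BALB/c donors make one. The alpha chain gene, listed as H2-Ea-ps, had 9 reads in the control and 4 in the cKO library, a change whose interval spans 0 (-3.09 to 0.90). H2-Eb2, a further beta chain gene next to H2-Eb1, had 259 and 653 reads and a change of 1.56 (1.36 to 1.78).

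Cd74, the invariant chain, was the most abundant member, with 15590 and 37862 reads and a log2 change of 1.51 (1.49 to 1.54). Its share of the members' reads was 48.6% in the control and 48.5% in the cKO library. Per kilobase of exon and 1000000 reads its level was 459 and 1230, against 105 and 257 for H2-Ab1. The ratio of Cd74 reads to the summed reads of H2-Aa, H2-Ab1 and H2-Eb1 was 1.28 and 1.31, a change of 1.03 times whose interval (0.9996 to 1.058) holds 1. The share taken by the chaperone thus differed little between the libraries.

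The DM genes, which encode the peptide exchange factor, differed most among themselves. H2-DMa, the alpha chain, had 696 reads in the control and 1214 in the cKO library and a log2 change of 1.03 (0.90 to 1.17), the smallest of the 10. H2-DMb1, a beta chain, had 382 and 1054 reads and a change of 1.69 (1.53 to 1.87). H2-DMb2, the tandem copy of H2-DMb1, had 591 and 2398 reads and a change of 2.25 (2.12 to 2.39), the largest of the 10. Alpha chain reads were 0.715 of the summed beta chain reads in the control and 0.352 in the cKO library, so the ratio was 0.492 of its control value (0.437 to 0.554). Per kilobase, H2-DMb2 stood at 1.49 times H2-DMb1 in the control and 2.19 times in the cKO library.

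Several members share sequence with another gene. Of the distinct 50-base stretches of H2-DMb1 transcripts 22.7% also occur in H2-DMb2, and 25.9% of those of H2-DMb2 occur in transcripts of another gene, so the split of reads between the copies is uncertain. Summed, the 2 copies had 973 and 3452 reads and a log2 change of 2.06 (1.96 to 2.16), which lies above the interval of H2-DMa. H2-DMa overlaps Brd2 on the opposite strand and shares 8.43% of its stretches with it. Brd2 had 7158 and 7927 reads and a change of 0.38, and whether reads were counted by strand is not given in the sources used here. The part of this overlap in the value of H2-DMa was not tested. H2-Oa shares 15.5% of its stretches with the antisense gene BC051537 and Ciita 1.46% with its neighbour Dexi, while H2-Ab1, H2-Eb1, Cd74 and H2-Ob share 0%.

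The DO genes, which encode the brake on DM, also had more reads in the cKO library. H2-Oa, the alpha chain, had 208 and 615 reads and a log2 change of 1.79 (1.57 to 2.03). H2-Ob, the beta chain, had 978 and 2364 reads and a change of 1.51 (1.40 to 1.62). Per kilobase of exon, H2-Oa stood at 0.813 of H2-Ob in the control and 0.995 in the cKO library, 1.22 times as high (1.025 to 1.46). Summed DO reads per summed DM read were 0.711 and 0.638, a change of 0.899 times (0.822 to 0.982). DM reads per read of the 3 peptide-binding chains were 0.137 and 0.162, or 1.18 times as many (1.115 to 1.26).

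Ciita, the transactivator, lies apart from the other genes on chromosome 16 (10480059 to 10528418) and had 1455 reads in the control and 3718 in the cKO library. Its log2 change of 1.59 (1.50 to 1.68) lay within the range of the genes it acts on. Ciita reads per read of the 3 peptide-binding chains were 0.119 and 0.129, a change of 1.08 times (1.01 to 1.155). Ciita is known to have separate promoters for dendritic cells, for B cells and for induction by interferon-gamma, and the tables hold 1 value per gene, so their use cannot be told apart.

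Ordered by change, the genes ran from H2-DMb2 through H2-Oa, H2-DMb1, H2-Aa, Ciita, Cd74, H2-Ob, H2-Eb1 and H2-Ab1 to H2-DMa. From H2-Oa to H2-Eb1 no gene could be told from the next in line beyond counting error. H2-DMb2 exceeded H2-Oa by 0.46 on the log2 scale (0.19 to 0.72), H2-Eb1 exceeded H2-Ab1 by 0.08 (0.003 to 0.16), and H2-Ab1 exceeded H2-DMa by 0.34 (0.20 to 0.49). Neighbours were thus set apart only at both ends of the order.

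**Figure D2:**
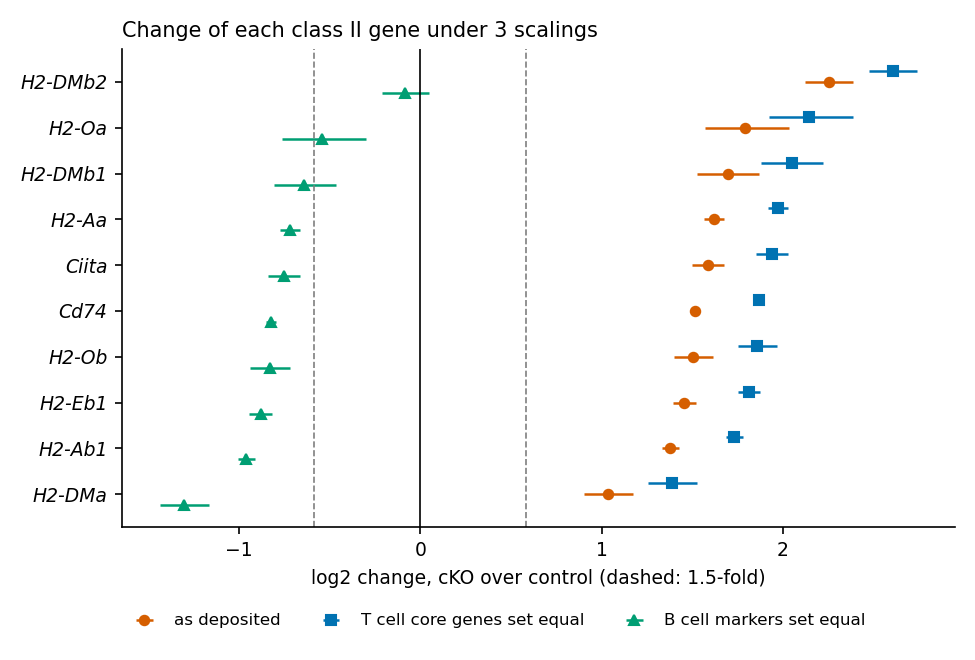
Log2 change of each class II gene, cKO over control, with 95% counting intervals, on the deposited scale (circles), on the T cell core scale (squares) and scaled on the B cell markers (triangles). Dashed lines mark 1.5-fold, and the points of all genes lie beyond the right line on the first 2 scales and below 0 on the third. On the third scale the interval of H2-DMb2 holds 0.

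Of the 10 members, 8 lie in one stretch of chromosome 17, from H2-Oa at 34092340 to the end of H2-Eb1 at 34316674 (GENCODE vM21), and the same stretch holds 5 other genes of the tables. These are Tap1 and Tap2, the transporter that supplies peptide to class I, the immunoproteasome genes Psmb8 and Psmb9, and Brd2, a chromatin reader. None of the 5 was 1.5-fold higher or lower, and their median change was 0.15. Of all 16659 genes compared, 2864 (17.2%) were higher and 4028 were lower. Tap1 had 4145 and 4351 reads and a change of 0.30 (0.24 to 0.37), and Psmb9 had 822 and 655 reads and a change of -0.09 (-0.24 to 0.06). The lowest member on this stretch, H2-DMa, lay above the highest neighbour, Brd2, on every scale used, since scaling shifts both alike. On the T cell core scale Brd2 (0.73) and Tap1 (0.66) passed 1.5-fold and the other 3 did not.

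**Figure D3:**
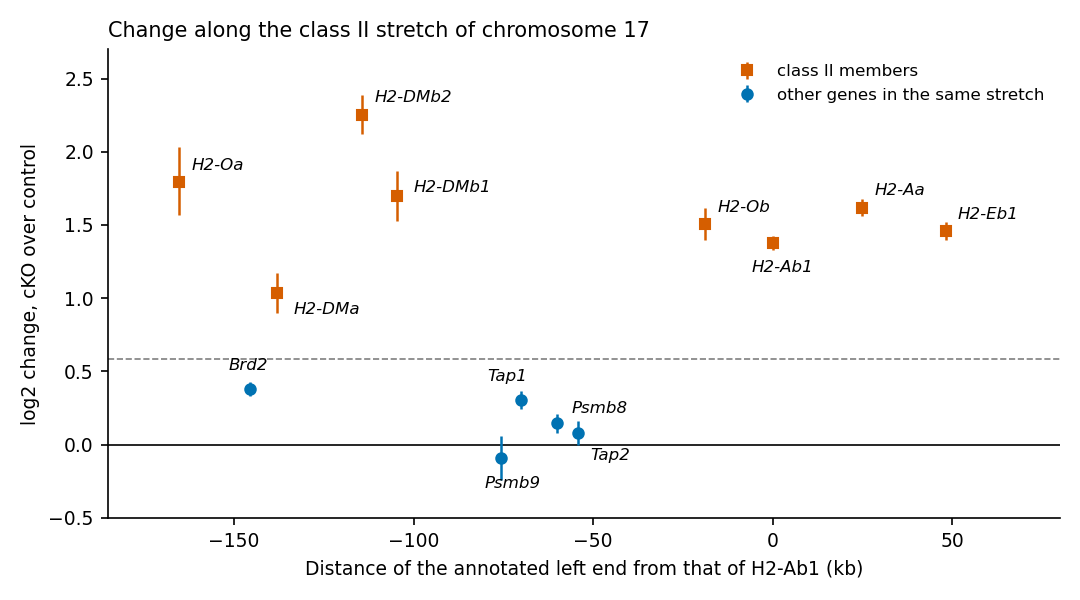
Log2 change, cKO over control, of the 13 genes of the tables in the class II stretch of chromosome 17, against the distance of each gene's left end from that of H2-Ab1 in kilobases, with 95% counting intervals. The 8 class II genes (squares) lie above the dashed 1.5-fold line and the 5 others (circles) below it.

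Class I genes, whose transactivator is Nlrc5, changed little beside the class II genes. H2-K1 and H2-D1, the class I heavy chains, had changes of 0.20 and 0.30, B2m, their light chain, 0.02, and Nlrc5 0.04 (-0.01 to 0.09). None of the 5 class I genes listed was 1.5-fold changed on the deposited scale. Of all 16659 genes compared, 2864 (17.2%) were higher and 4028 were lower. On the T cell core scale 1 was 1.5-fold higher, against 30.9% of all genes, and their median was 0.55.

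Of the 7 enhanceosome genes, 0 were 1.5-fold higher, against 17.2% of all genes. In the other direction, 1 was 1.5-fold lower, against 4028 of all 16659 genes compared. Their median change was -0.14, or 0.21 on the T cell core scale. Rfx5, the DNA-binding RFX subunit, had 792 reads in the control and 366 in the cKO library and a change of -0.88 (-1.06 to -0.70). Rfxank, another RFX subunit, had 724 and 829 reads and a change of 0.43 (0.28 to 0.57). Creb1 had the most reads of the list, 4118 and 3034, and a change of -0.21. On the T cell core scale Rfx5 was at -0.53, short of 1.5-fold, and Rfxank at 0.78. Across the 18 promoters with both motifs, 11 belong to genes in the tables. The 5 class II genes among them, H2-Eb2 included, were all at least 1.5-fold higher, and 4 of them are members whose change was already given. The 5 other genes with reads had changes from -0.42 (Tnfrsf9) to 0.15 (Bscl2), and 0 of 5 higher is near the 17.2% of all genes.

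Among 7 factors that are known to act on the Ciita promoters, 2 were at least 1.5-fold higher and 5 were between the thresholds, with a median of 0.14, against 17.2% of all genes higher. On the T cell core scale 3 of the 7 were higher, against 30.9% of all genes. The higher genes were Irf8, for which 2095 and 3579 reads gave a change of 1.01, and Spi1, which encodes PU.1, for which 2313 and 3220 reads gave 0.71. Both are myeloid and B cell factors. Irf1, which acts on Ciita in the response to interferon-gamma, had 3583 and 3146 reads and a change of 0.05 (-0.02 to 0.12), or 0.40 on the T cell core scale. Prdm1, a repressor of Ciita in plasma cells, had a change of 0.11 (-0.01 to 0.24).

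Of 11 genes for antigen processing and class II turnover, 5 were at least 1.5-fold higher, against 17.2% of all genes. In the other direction, 1 was lower, against 4028 of all 16659 genes compared. On the T cell core scale 7 were higher, against 30.9% of all genes. March1, the ubiquitin ligase that removes class II from the surface of B cells and dendritic cells, had 565 reads in the control and 2385 in the cKO library, a change of 2.31 (2.18 to 2.45). Only H2-DMb2 among the members had an interval that overlaps it. Cd83, which counters March1, had 694 and 1183 reads and a change of 1.002. March8, a related ligase, had 1095 and 595 reads and a change of -0.65, or -0.29 on the T cell core scale. Among the proteases, Lgmn had a change of 1.34 (1.22 to 1.47) and Ctss, which trims Cd74 to CLIP, 0.69 (0.64 to 0.74).

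Both receptors listed that T cells use to contact class II were at least 1.5-fold lower, as were 4028 of all 16659 genes compared. Cd4, the coreceptor, had 8371 and 4658 reads and a log2 change of -0.61, and Lag3, an inhibitory receptor for class II on activated and regulatory T cells, had 462 and 181 reads and a change of -1.11 (-1.37 to -0.87). Cd4 is itself 1 of the 16 T cell core genes, and its change lay within their range of -0.84 to -0.16. On the T cell core scale, which Cd4 helps to set, Cd4 was at -0.26 and Lag3 at -0.76. Of 5 genes for Cd74 ligands and receptor partners, Cxcr4 (0.88) and Cxcr2 (0.64) were at least 1.5-fold higher, against 17.2% of all genes. Cd44 was at 0.58, and the ligand Mif was at -0.49, or -0.14 on the T cell core scale.

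Markers of the cells that carry class II in the spleen were measured beside the members. All 17 B cell markers found were at least 1.5-fold higher, with a median log2 change of 2.34, a range from 0.63 to 3.10, and 14002 reads in the control and 51131 in the cKO library. Reads of the members for each B cell marker read were 2.29 in the control and 1.53 in the cKO library, which is 0.666 times as many (0.651 to 0.681). Pou2af1, with the smallest change of the list (0.63), held 3027 and 3997 of the B cell marker reads. The summed marker reads had a change of 2.10, below the median of the markers. Pax5, a B cell transcription factor, had a change of 3.10, above every member. All 16 macrophage markers were also at least 1.5-fold higher, with a median of 2.16, a range from 0.78 to 4.38, and 28957 and 53507 reads in sum. Members' reads per macrophage marker read went from 1.11 to 1.46. Lyz2 alone held 21710 and 33118 of the macrophage marker reads, with a change of 0.84, well below the median. This ratio therefore follows chiefly 1 gene and does not show how the members changed against the other macrophage markers. The 10 dendritic cell markers had a median of 0.10, with 2 higher, near the 17.2% of all genes, and 5328 and 5246 reads in sum. Members' reads per dendritic cell marker read went from 6.03 to 14.9. Ccr7 alone held 2394 and 1973 of the dendritic cell marker reads, with a change of -0.05, so this ratio rests in large part on 1 gene. Which cells the Ccr7 reads came from was not tested. The ratio therefore does not show how the members changed against dendritic cells. The 2 higher dendritic cell markers were Siglech (1.16), a plasmacytoid dendritic cell marker, and Itgax (0.65), which encodes CD11c. The lowest was Zbtb46 (-0.42), a marker of conventional dendritic cells. No marker on these lists was at 0 in either library. The 10 Treg markers had a median of 0.11 and a range from -0.71 to 1.35. Of these, 2 were at least 1.5-fold higher, near the 17.2% of all genes, 1 was lower and 7 were between. Lower genes were 4028 of all 16659 compared. In bulk RNA a larger number of cells of a type and more RNA per cell cannot be told apart, and the part of other cell types in the class II values was not tested.

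**Figure D4:**
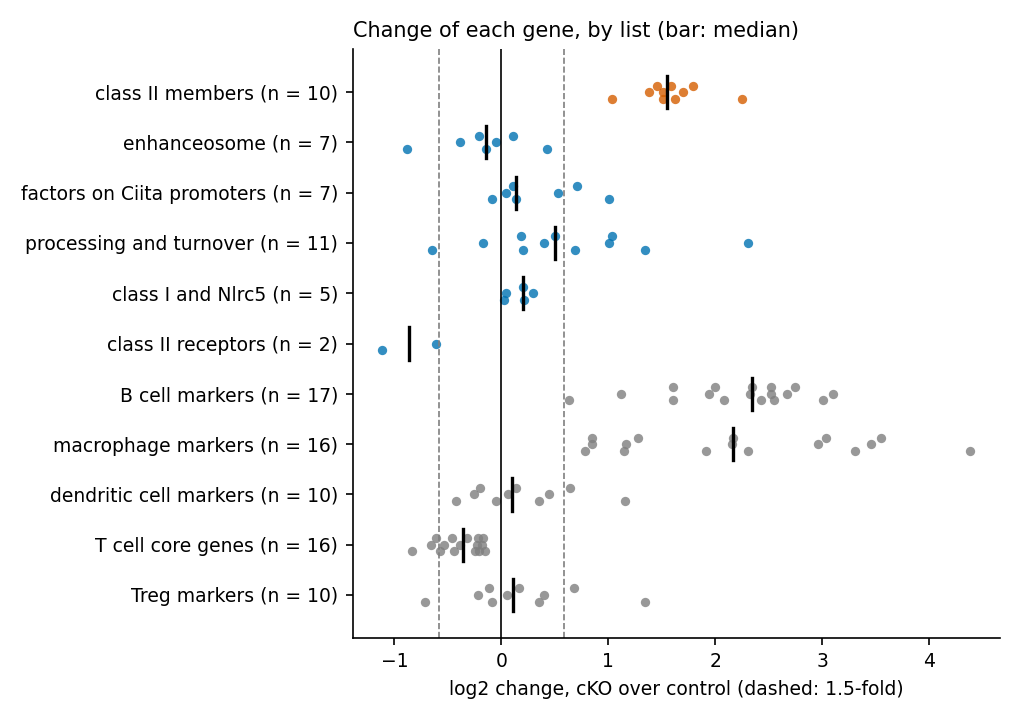
Log2 change, cKO over control, of each gene (points) in the class II members, related gene lists and cell type marker lists, with the median of each list as a bar and dashed lines at 1.5-fold. The medians of the B cell (2.34) and macrophage (2.16) markers lie above that of the class II genes (1.55), and those of the enhanceosome, class I, dendritic cell and Treg lists lie between -0.14 and 0.20.

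The choice of scale moved these counts. The T cell core scale put the median of all genes at 0.31 in place of -0.04, and 62.2% of the 1.5-fold changed genes were higher in place of 41.6%. On that scale 10 of 10 members were higher, with a median of 1.90, against 30.9% of all genes. Scaled on the B cell markers, the median of all genes was -2.36, and 0 of 10 members were 1.5-fold higher against 4.45% of all genes. The members' changes on that scale ran from -1.30 for H2-DMa to -0.085 for H2-DMb2, whose counting interval holds 0. H2-DMb2 was the highest and H2-DMa the lowest member on each of these scales, since scaling shifts all genes alike and leaves their order.

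The genes outside the pathway whose change was nearest the members' median, among 4889 genes with a mean value of at least 1000, were Icosl (1.55), Cds2 (1.56), Arhgap26 (1.53), Btla (1.57) and Irf5 (1.58). Likeness here is the difference of log2 changes over only 2 libraries.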

How the data were processed

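The authors aligned the reads to mm10 with TopHat, by the paper's methods, and the submitters' processing notes also name bcl2fastq 2.0, STAR, StringTie and DESeq2 without a role. The deposited values are a signal, namely counts of reads that each library's own size factor had scaled. Dividing by the step gave whole reads for 100% of the values (tolerance 0.01). A floor of 3 reads is 0.148 per 1000000 reads in the control and 0.164 in the cKO library. Members and lists were chosen with earlier results of these data known. The genes named are the 10 members, up to 5 examples of each list by size of change or reads, Mettl14, Foxp3, and the 5 genes nearest the members' median, and Pax5, Siglech, Itgax, Zbtb46, Tnfrsf9 and Bscl2 were added after their values were seen. The annotation, counting tool and strand setting behind the counts are not given in the sources used here. H2-Ea and Ighm were not found, nor were Marchf1 and Marchf8, which were listed as other symbols of March1 and March8, and some list genes are not reported here by name. Exon lengths and positions came from GENCODE vM21 (GRCm38), and a length joins the exons of all transcripts of a gene. Ratios between genes have exact conditional intervals of the odds ratio. As replacements for the settings above, pseudocounts of 0.1 and 5, no filter and a minimum mean of 10, median-of-ratios and TMM scaling, scaling on T cell core genes or B cell markers, and a 2-fold threshold were tried. An exact binomial test on recovered reads compares the 2 libraries and not the genotypes. The steps were tested on simulated data. Python 3.11.15, numpy 2.4.6, scipy 1.17.1, pandas 2.3.3, matplotlib 3.10.9, R 4.3.3 and edgeR 4.0.16 were used.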

Additional observations from a re-analysis of the deposited data

How the results depend on the processing

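No paired analysis was possible because there is only 1 control and 1 cKO library, and for the same reason no replicate could be left out. With either other pseudocount, either other filter, median-of-ratios or TMM scaling, the change of each of the 10 members and their median stayed within the counting intervals. On the T cell core scale the members' median was 1.90, and 1 enhanceosome gene (Rfxank) and 2 of the genes between the class II genes (Brd2 and Tap1) were at least 1.5-fold higher. The same scale took processing and turnover genes from 5 to 7 higher, factors acting on the Ciita promoters from 2 to 3, and Cd74 partners, dendritic cell markers and Treg markers each from 2 to 4. The share of all genes that were higher went from 17.2% to 30.9%. Scaled on the B cell markers, the members' median reversed to -0.79, and 0 members, 0 processing and turnover genes and 0 factors acting on the Ciita promoters were at least 1.5-fold higher. On that scale the values were -0.72 for H2-Aa, -0.96 for H2-Ab1, -0.88 for H2-Eb1, -0.83 for Cd74, -1.30 for H2-DMa, -0.64 for H2-DMb1, -0.085 for H2-DMb2, -0.54 for H2-Oa, -0.83 for H2-Ob and -0.75 for Ciita. This scaling by construction moves every gene down by the markers' median. At a 2-fold threshold 1 factor acting on the Ciita promoters (Irf8) was higher. The exact binomial test on recovered reads with the 1.5-fold threshold, over 14863 genes, gave 2197 higher and 2617 lower genes, and 10 of 10 members were among the higher.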
